A study of Mus musculus with 4 samples.

Results

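Translation initiation factors are the proteins that bring a ribosome, the initiator tRNA and an mRNA together at a start codon, and the transcripts of 44 genes for these factors were compared here between RNA recovered with FLAG-tagged NANOS2 and the RNA of the same kind of tissue before recovery. The genes were those with a symbol from Eif1 to Eif6, leaving out Eif4enif1 and the Eif4ebp, Eif2ak and Eif2c genes. Of 59 symbols of this kind in the RefSeq gene table, 48 are protein-coding, and 44 of these were matched to an array probe through the accession in the scanner files. The other protein-coding ones, Eif2b3, Eif3j2, Eif4a3l1 and Eif4e1b, are not analysed here. The 44 stood among 33390 features (genes, or accessions without a symbol) on each array.

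The tissue was male mouse testis at postnatal day 7, and all 4 samples carried the transgene Tg-Nanos2 enhancer-3xFLAG-Nanos2-3'UTR, in which an enhancer of Nanos2 drives FLAG-tagged NANOS2. NANOS2 binds RNA in male germ cells and represses target mRNAs together with a deadenylase. Input denotes the starting RNA (2 arrays) and FLAG IP the RNA recovered with the FLAG tag (2 arrays), each hybridised to a single-colour Agilent mouse array. The series describes the duplicates as biological without naming animals, and p-values measure the spread between these samples, which may be technical. A description field names an E14.5 gonad, whereas titles and characteristics give P7, the age used here. A FLAG recovery from untagged testis is not analysed here, so a change compares the make-up of both RNA pools and is not by itself binding by NANOS2.

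Initiation begins when eIF1, eIF1A, eIF3 and eIF5 gather on the small ribosomal subunit with eIF2, which carries the initiator tRNA. The eIF4 group recognises the cap of the mRNA and unwinds its leader, eIF2 is recharged with GTP by eIF2B, and eIF5B and eIF6 act at the joining of the large subunit. Male germ cells store and translate mRNAs in a timed way, and repression by RNA-binding proteins often acts at initiation.

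Levels below are log2 signals from which each array's own 75th percentile was subtracted, and a change is FLAG IP minus Input on that scale. The SE of a change comes from a limma model fitted over all 21596 features that passed the scanner software's test against background on the 2 Input arrays, the 2 FLAG IP arrays or all 4. A transcript is called at an adjusted p under 0.05 (Benjamini-Hochberg over all those features). All 44 initiation factor transcripts were well above background on all 4 arrays. The arrays had 66.3% to 68.4% of 41174 probes well above background, and the small number of arrays limits what can be called. The Pearson correlation over features was 0.994 for the pair of Input arrays, 0.988 for the FLAG IP pair and 0.952 to 0.958 for pairs of 1 array from each group.

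Initiation factor transcripts did not move as a block. At the brightest probe of each gene, the FLAG IP held a higher share of Eif1a, at 6.39-fold, Eif5a2, at 2.44-fold, Eif1ad, Eif5 and Eif4g1. It held a lower share of Eif3i, Eif4e2, Eif1ax, Eif2d, Eif3k, Eif2b2, Eif4h and Eif2a, all of these lower by under 2-fold. Eif1ad and Eif4e2 each had another probe called in the opposite direction. Of 44 transcripts 5 were called higher (11.4%) and 8 lower (18.2%), where 15.7% of all features tested were called higher and 21.2% lower. The median change was −0.18, against −0.15 for all features. The members' counts thus lay near the background of the arrays, and the results are those of single genes. Changes of 2-fold or more that passed the test were seen at the brightest probe of 2 members, both higher. Of all features, 9.29% were called higher and 8.63% lower with such a change. Other probes of members had called changes of that size in both directions, among them −1.54 in Eif3e and 1.11 in Eif2s3x. Without Input replicate 1 or without Input replicate 2 only Eif1a was called, with 1 member higher and 0 lower in limma and 4 or 7 members lower at an unadjusted p under 0.05. Without FLAG IP replicate 1 the number called lower was 5. In each fit that leaves out an array, 1 group is a single array that is assumed to vary like the pair of the other group.

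**Figure D1:**
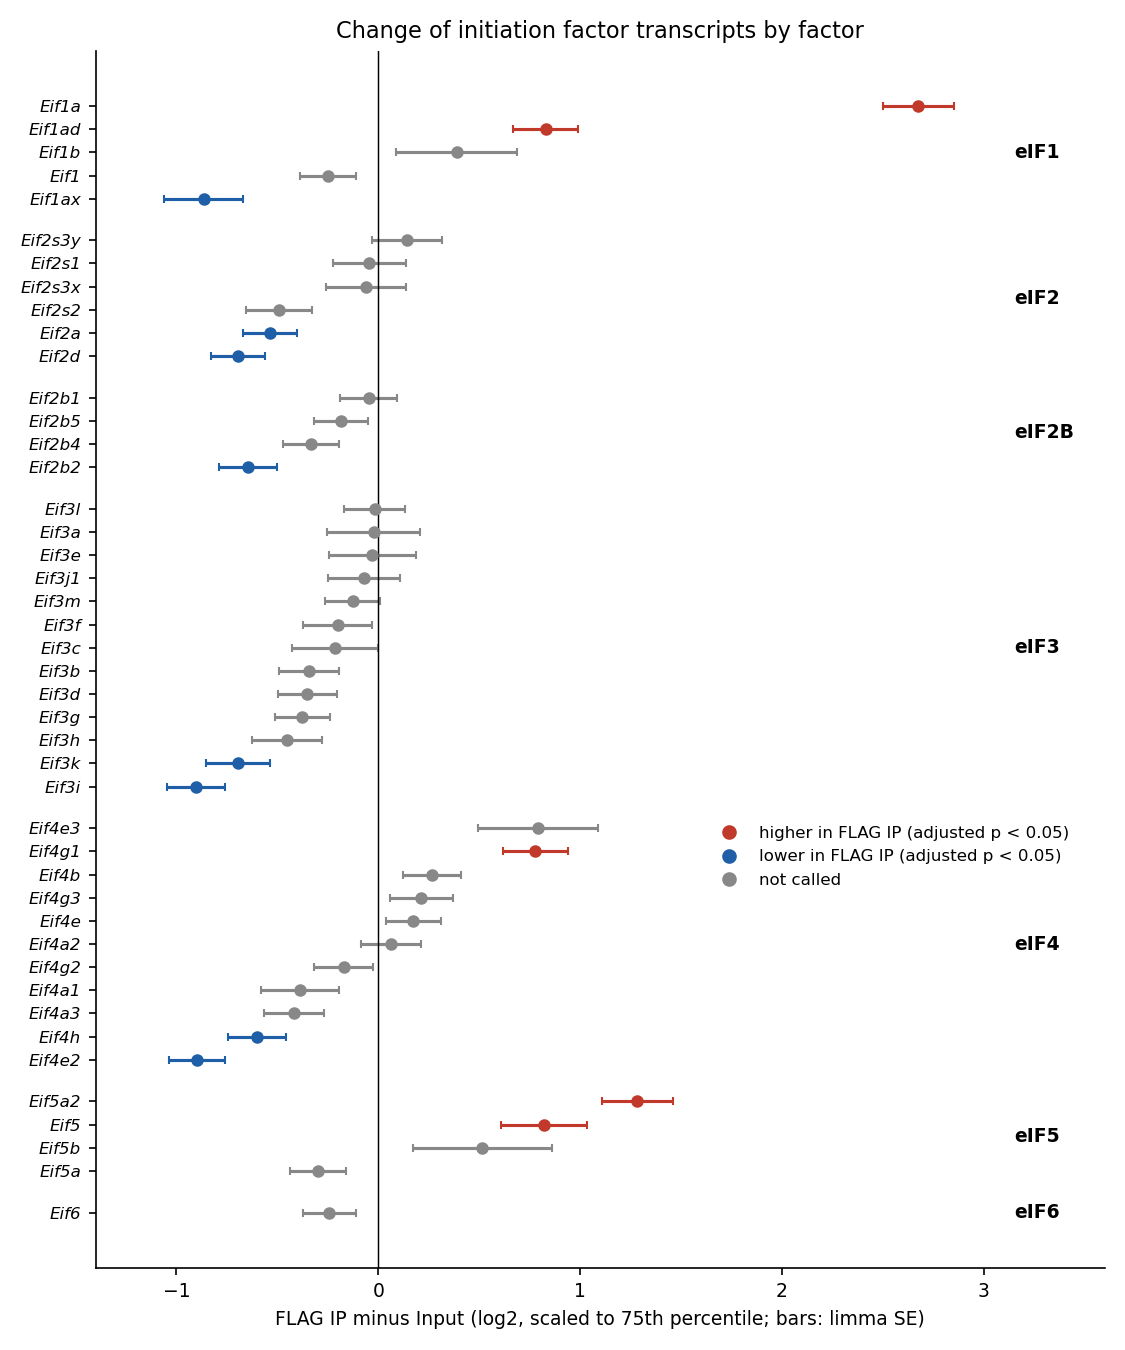
Change of each of the 44 initiation factor transcripts (x axis, FLAG IP minus Input in log2; points are the fitted change and bars its limma SE, n = 2 arrays per group), grouped by factor. Eif1a stands at 2.68, well to the right of Eif5a2 at 1.28, and the 13 eIF3 transcripts lie at or left of −0.02 in this scaling, whereas 4 of 13 were below 0 under quantile normalization.

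The changes spread less than those of the arrays as a whole, with an SD over genes of 0.65 against 0.88. The initiation factor transcripts were also bright, with a median level of 3.39 against −0.92 for all features tested. Across the 44 genes, which share the same 4 arrays, level and change had a Pearson r of −0.23, and across all features r was 0.03. Both FLAG IP arrays lay above both Input arrays for 10 members, where 29.8% of all features did so, and both lay below for 22 members, where 44.7% did. The remaining 12 overlapped. In the FLAG IP, replicate 2 was above replicate 1 for 30 of 44 members (68.2%) and for 45.1% of all features.

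**Figure D2:**
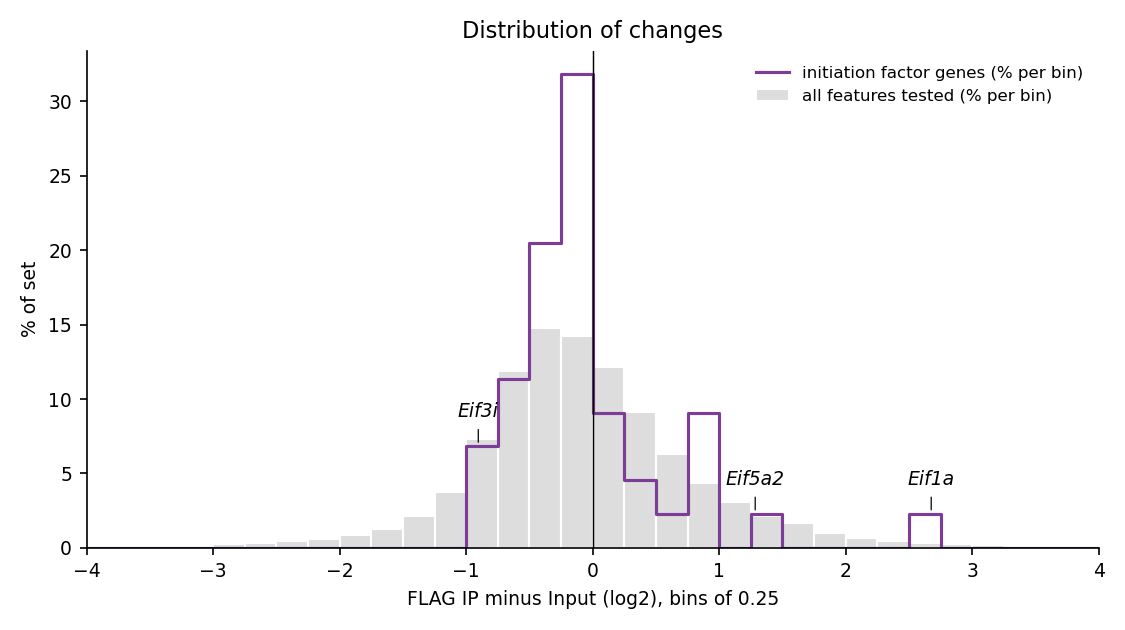
Share of the 44 initiation factor genes (purple outline) and of all 21596 features tested (grey bars) in each bin of change (x axis, FLAG IP minus Input in log2; y axis, % of the set). The outline peaks just below 0 and holds Eif1a at 2.68 as its rightmost gene.

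A sequence feature was read at the start of the transcripts because many mRNAs of the translation machinery carry a terminal oligopyrimidine tract (TOP), through which mTOR and LARP1 control their translation. RefSeq start sites of GRCm38.p6 were found for 37 of the 44 genes, and the 24 bases around each start (12 on each side) were searched on the transcript's strand for a C followed by at least 5 further pyrimidines. Such a run was present for 9 of the 37 genes (24.3%), against 20.8% of all 27025 genes with a start window. By window the share was 19.6% of 46 for the initiation factors, 18.2% for all starts and 48.1% for genes of cytosolic ribosomal proteins. The run lay in 1 of 4 genes called higher, 1 of 7 called lower and 7 of 26 not called. Eif1a and Eif3i, the members with the highest and the lowest change, were not among the 37 genes. The windows below show the longest tracts and, for contrast, windows of called genes, with the pyrimidine run in capitals where there is 1.
Eif3f (chr7:108934403-108934426, + strand): gttctaggCTCTCTCTCTTTCTCg
Eif2b5 (chr16:20498805-20498828, + strand): tCCTCTTTCTCTCCCTgcaactac
Eif2s3x (chrX:94212640-94212663, - strand): ccgagcattttCCTTTTCTCTCCg
Eif2s3y (chrY:1010583-1010606, + strand): gaggccacagccaCTTCCTTCTTT
Eif4g1 (chr16:20672715-20672738, + strand): cagcgcagctccgCCCTCTgcgcc
Eif2b2 (chr12:85219469-85219492, + strand): caccgagcggaagttgaCCTCTCT
Eif5 (chr12:111538089-111538112, + strand): atcgacgtgcatgcgagccaatga
Eif5a2 (chr3:28781265-28781288, + strand): gggcccgggctgggcgggccgggg
The longest runs, of 15 bases in Eif3f and Eif2b5 and 12 in Eif2s3x, belonged to genes with changes of −0.20, −0.18 and −0.06, none of them called. Runs could lie partly or wholly before the annotated start, outside the transcript. The run of Eif2b5 began 11 bases before it. Those of Eif4e and Eif4b, of 10 and 6 bases, began 12 bases before it and ended before it. A match is a run of letters around an annotated start, whose exact base is uncertain, and is not a measured TOP.

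The eIF1 group held the member with the largest change. Eif1a encodes eIF1A, which helps the small subunit scan for the start codon, and is the autosomal partner of the X-linked Eif1ax. The levels of Eif1a were 1.20 and 1.44 on the Input arrays (replicates 1 and 2) and 4.12 and 3.87 on the FLAG IP arrays. Both FLAG IP arrays were therefore far above both Input arrays, and the change was 2.68 ± 0.18 (SE, adjusted p = 0.0041), larger than 99.2% of all features. Eif1a stayed called in all 15 alternatives run, with changes between 1.42 and 2.80. Its other probe rose too, by 1.42 ± 0.14 (adjusted p = 0.0064).

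Eif1ax, whose product is nearly identical to that of Eif1a, moved the other way. It had levels of 4.68 and 4.53 in the Input and 3.53 and 3.95 in the FLAG IP, a change of −0.87 ± 0.20 (adjusted p = 0.029). The groups did not overlap, and the other probe of Eif1ax fell as well, by 0.66 ± 0.15 on the log2 scale (adjusted p = 0.029). Eif1ad, an eIF1A domain-containing protein, had 1.1 and 0.93 in the Input against 1.74 and 1.95 in the FLAG IP, a change of 0.83 ± 0.16 (adjusted p = 0.021). That direction rested on the probe used, as described below. Eif1, the start codon selection factor, and its close relative Eif1b were not called. Eif1 had 5.52 and 5.53 in the Input and 5.34 and 5.21 in the FLAG IP (change −0.25, adjusted p = 0.21). Eif1b had 3.68 and 4.48 on the FLAG IP arrays against 3.76 and 3.62 in the Input (change 0.39 ± 0.30, adjusted p = 0.34). It was called without FLAG IP replicate 1, when the FLAG IP is the higher array alone.

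**Figure D3:**
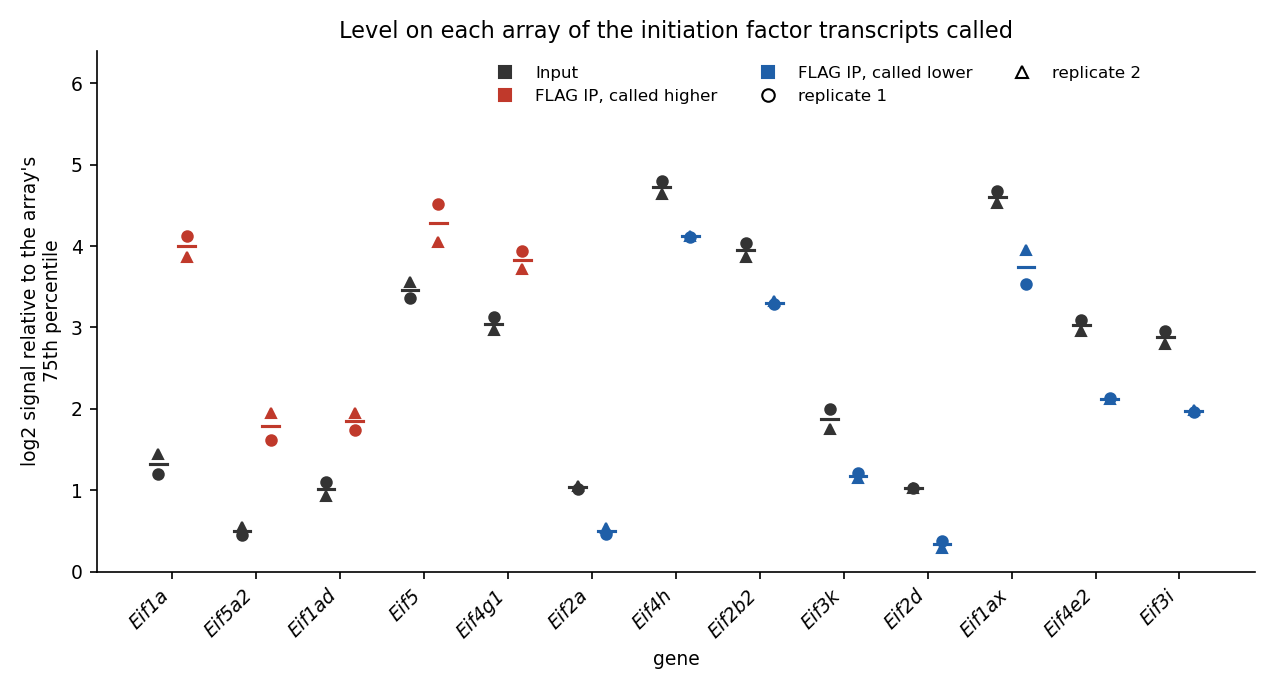
Level of the 13 called initiation factor transcripts on each array (y axis, log2 signal relative to the array's 75th percentile; circles replicate 1, triangles replicate 2, dashes the mean of 2 arrays; dark Input, red or blue FLAG IP). Genes are ordered from the highest change (Eif1a, 2.68) to the lowest (Eif3i, −0.90), and the groups do not overlap for any of the 13.

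In the eIF5 group 2 of 4 transcripts were called higher at the brightest probe, a small list beside 15.7% of all features higher. Eif5a2 encodes the less widely expressed form of eIF5A, a factor carrying the modified residue hypusine that helps ribosomes form difficult peptide bonds. Its levels were 0.45 and 0.55 in the Input and 1.62 and 1.95 in the FLAG IP. The FLAG IP arrays were clear of the Input arrays, with a change of 1.28 ± 0.17 (adjusted p = 0.010), and the other probe gave 1.29 ± 0.15 (adjusted p = 0.0081). Eif5a, the widely expressed form, had 4.78 and 4.69 in the Input and 4.47 and 4.4 in the FLAG IP and was not called (change −0.30 ± 0.14, adjusted p = 0.15). Dhps, the first enzyme of hypusine synthesis, fell by 0.71 ± 0.18 on the log2 scale (adjusted p = 0.039), and Dohh, the second, had a change of −0.24 (adjusted p = 0.41).

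Eif5 encodes the GTPase-activating partner of eIF2. It had 3.36 and 3.56 in the Input and 4.52 and 4.05 in the FLAG IP, and rose by 0.82 ± 0.21 (adjusted p = 0.041). The FLAG IP replicates lay apart by more than the Input replicates, and without FLAG IP replicate 1 Eif5 was not called. Its other probe rose by 2.0 ± 0.14 (adjusted p = 0.0043). Eif5b, the GTPase of subunit joining, had 3.97 and 4.0 in the Input but 4.01 and 4.99 in the FLAG IP, with replicate 2 standing above the other 3 arrays. Its change was 0.51 ± 0.34 (adjusted p = 0.28), and its call without FLAG IP replicate 1 rests on that single high array. Eif6, which keeps the large subunit from joining early, had 3.83 and 3.81 against 3.59 and 3.57 (change −0.24 ± 0.13, adjusted p = 0.20) and was not called.

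In the eIF4 group, Eif4g1 rose while Eif4e2 and Eif4h fell, and the other 8 of 11 were not called. The shares were 9.1% higher and 18.2% lower, beside 15.7% and 21.2% of all features. Eif4g1 encodes the main scaffold that joins the cap-binding protein to eIF3. Its levels were 3.12 and 2.97 in the Input and 3.94 and 3.71 in the FLAG IP, a change of 0.78 ± 0.16 (adjusted p = 0.023). Its other probe, which was dim, gave 0.79 ± 0.25 (adjusted p = 0.068). Eif4g3, a second full-length scaffold, had a change of 0.21 ± 0.15 (adjusted p = 0.32), and Eif4g2, which lacks the part that holds the cap-binding protein and serves cap-independent initiation, had −0.17 ± 0.15 (adjusted p = 0.39).

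Among the cap-binding proteins, Eif4e itself had 2.82 and 2.75 in the Input and 2.91 and 3.01 in the FLAG IP (change 0.17 ± 0.14, adjusted p = 0.36). Eif4e2, known as 4EHP, binds the cap without recruiting a scaffold and acts in translational repression. Its brightest probe had 3.10 and 2.95 in the Input and 2.13 and 2.12 in the FLAG IP, a change of −0.90 ± 0.14 (adjusted p = 0.013). This fall belongs to that probe, since another probe of Eif4e2 was called higher and the mean over its probes was not called, with the values below. Eif4e3 was dim, at −2.62 and −2.48 against −1.36 and −2.16, and was not called (change 0.79 ± 0.30, adjusted p = 0.097). Without FLAG IP replicate 2, when the higher array stands alone, its change was 1.20. With all 4 arrays it was called under some of the alternatives run, among them normexp background correction (0.82, adjusted p = 0.0055) and the mean over probes. It was not called under others, among them quantile normalization (0.81, adjusted p = 0.084). Of the partners of these proteins in a list of related genes, Gigyf2, a binding partner of 4EHP, rose by 0.73 ± 0.14 (adjusted p = 0.020), and Eif4enif1, a carrier of eIF4E, by 0.60 ± 0.14 (adjusted p = 0.032). Related genes were read at their brightest probe only, here and elsewhere. Cyfip1, which can hold eIF4E in repressed complexes, fell by 0.84 ± 0.14 on the log2 scale (adjusted p = 0.014). The 3 genes for eIF4E-binding proteins, Eif4ebp1, Eif4ebp2 and Eif4ebp3, were not called, with changes of −0.40, 0.01 and −0.13.

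The helicase genes Eif4a1, Eif4a2 and Eif4a3, of which the last serves the exon junction complex, were not called (changes −0.39, 0.06 and −0.42, adjusted p between 0.085 and 0.75). Of the helicase stimulators, Eif4h had 4.81 and 4.63 in the Input and 4.11 and 4.12 in the FLAG IP, and fell by 0.60 ± 0.14 on the log2 scale (adjusted p = 0.033). Eif4h was the called member with the most alternatives that ended its call, 7 of 15, and it was not called without any 1 of the 4 arrays (adjusted p up to 0.24). Eif4b had a change of 0.26 ± 0.14 (adjusted p = 0.20). Outside the family, the scanning helicase gene Ddx3y rose by 1.15 ± 0.23 (adjusted p = 0.023), while its X-linked partner Ddx3x had 0.51 ± 0.15 (adjusted p = 0.058).

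The factor eIF3 is the large complex that holds the small subunit ready. At the brightest probe of each gene, 2 of its 13 transcripts were lower (15.4%, beside 21.2% of all features) and 11 were not called. Their changes lay between −0.90 and −0.02 with a median of −0.22, all 13 below 0 in this scaling but only 4 under quantile normalization, where the median was 0.061. Of the 13, 8 were below the median of all features in this scaling. That count was 3 under quantile normalization and 13 under normexp background correction. No direction of the complex as a whole is read from these counts. Eif3i fell the furthest, from 2.96 and 2.80 in the Input to 1.95 and 1.99 in the FLAG IP, a change of −0.90 ± 0.14 (adjusted p = 0.013). Eif3k, a peripheral subunit, fell from 2.0 and 1.75 to 1.21 and 1.15, by 0.69 ± 0.16 on the log2 scale (adjusted p = 0.029), and was not called without FLAG IP replicate 2. In both genes the groups were well apart. Eif3l, the partner of Eif3k at the edge of the complex, had 5.75 and 5.87 against 5.70 and 5.89 (change −0.02 ± 0.15). The core subunit genes Eif3a, Eif3b and Eif3c had −0.02, −0.35 and −0.22, and Eif3g and Eif3h had −0.38 and −0.45 with adjusted p = 0.090 and 0.10. The 11 uncalled changes do not show that these transcripts stayed the same. Another probe of Eif3e was called lower, at −1.54, and another probe of Eif3j1 higher, at 0.82, as described below.

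The eIF2 group had 2 of 6 members called lower (33.3%, beside 21.2% of all features). These calls are at the brightest probe of each gene, and neither gene encodes a subunit of eIF2 proper. Eif2d encodes an initiator tRNA carrier that acts outside the eIF2 route and in recycling. It had 1.03 on each Input array and 0.38 and 0.29 in the FLAG IP, a change of −0.70 ± 0.14 (adjusted p = 0.021). Its 3 probes were all called lower, with changes between −0.80 and −0.70. Eif2a, an eIF2-independent factor distinct from the eIF2 alpha subunit, had 1.02 and 1.05 against 0.46 and 0.54 (change −0.54 ± 0.13, adjusted p = 0.037) and was not called without FLAG IP replicate 1.

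Of the eIF2 subunits, Eif2s1 (alpha, the target of the stress kinases) had a change of −0.04, Eif2s2 (beta) −0.49 ± 0.16 (adjusted p = 0.072) and Eif2s3x (gamma, X-linked) −0.06. For Eif2s3x this is the brightest of 3 probes, and the others were called higher, with the values below. Eif2s3y is the Y-linked gamma subunit, known to be needed for proliferation of mouse spermatogonia. It had 1.97 and 2.16 in the Input and 2.07 and 2.36 in the FLAG IP, which overlapped, with a change of 0.14 ± 0.17 (adjusted p = 0.54). In eIF2B, the exchange factor of eIF2, Eif2b2 fell from 4.03 and 3.87 to 3.28 and 3.33, a change of −0.64 ± 0.14 (adjusted p = 0.028). It was not called without FLAG IP replicate 1. Eif2b4, Eif2b5 and Eif2b1 had changes of −0.34, −0.18 and −0.05 and were not called.

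Control of eIF2 by phosphorylation was read from 9 related genes at the brightest probe of each. Of these, 2 were higher and 2 lower, beside 15.7% and 21.2% of all features. Ppp1r15a, the inducible phosphatase subunit GADD34, rose by 1.20 ± 0.16 (adjusted p = 0.0094) and Eif2ak1, the haem-regulated kinase, by 0.59 ± 0.14 (adjusted p = 0.034). Eif2ak4, the kinase GCN2, fell by 0.83 ± 0.14 on the log2 scale (adjusted p = 0.015) and Atf4, whose mRNA is translated when eIF2 is phosphorylated, by 0.65 ± 0.17 (adjusted p = 0.039). The other 5, among them Eif2ak3 (0.65 ± 0.21, adjusted p = 0.069) and Ddit3 (−0.48, adjusted p = 0.063), were not called.

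Paralogous genes were set against each other within each array, which cancels any scaling of whole arrays. For 10 pairs, chosen by kinship after the values had been seen, the log2 difference between the paralogues was taken on every array and compared between FLAG IP and Input. The difference of Eif1a over Eif1ax was larger in the FLAG IP by 3.54 ± 0.39 (SE over arrays, n = 2 per group), with a range over the 4 FLAG IP by Input pairs of 3.01 to 4.07. Eif5a2 over Eif5a was larger by 1.58 ± 0.22 (1.29 to 1.88). Eif4e2 over Eif4e, at the brightest probe of each, had −1.07 ± 0.06 (−1.16 to −0.98) and Eif4g2 over Eif4g1 −0.95 ± 0.20 (−1.17 to −0.73). At the brightest probe of each, the sex-linked pair Eif2s3y over Eif2s3x overlapped between groups (−0.04 to 0.45), as did Eif4a3 over Eif4a1 (−0.19 to 0.13). The other probes of Eif2s3x were called higher, with the values below, and were not used in this difference. The other 4 pairs did not overlap. Absence of overlap is common on these arrays, at 29.8% of single features upward and 44.7% downward. With 2 arrays against 2, the exact two-sided permutation test cannot go below p = 0.33, the value reached by each of the 8 pairs without overlap, so these differences were not shown by a test.

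**Figure D4:**
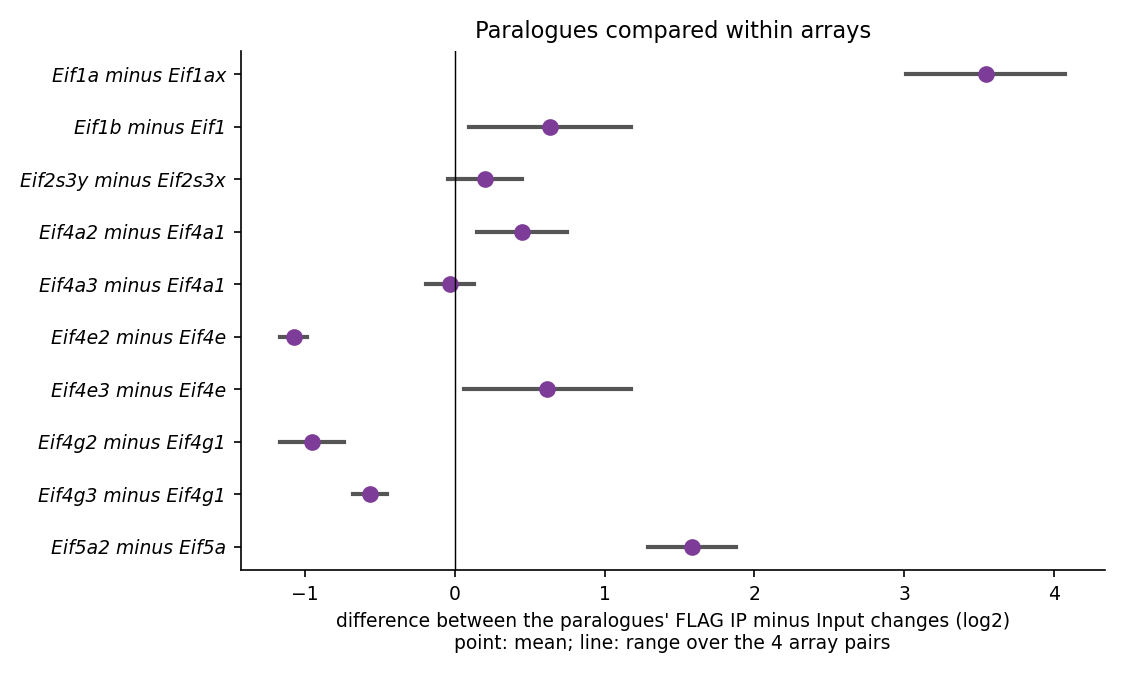
Difference between paralogues in their FLAG IP minus Input change (x axis, log2; points are the mean, lines the range over the 4 array pairs) for 10 pairs. Eif1a minus Eif1ax, at 3.54, and Eif5a2 minus Eif5a, at 1.58, lie furthest to the right, and Eif4e2 minus Eif4e, at −1.07, furthest to the left.

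Different probes of the same gene did not always give the same answer. The members had 83 probes, of which 14 were called higher (against 15.6% of all probes tested) and 14 lower (against 20.0%), in a fit over all 27832 probes tested. Of 27 members with more than 1 probe, 13 had no probe called, 5 had all probes called in the same direction (Eif1a, Eif1ax, Eif2d, Eif5 and Eif5a2), 7 had some probes called in 1 direction only, and 2, Eif1ad and Eif4e2, had probes called in opposite directions. Of all 4402 genes with a symbol and more than 1 tested probe, 0.727% had opposite calls, 800 had all probes called the same way and 2171 had none called, so the members' other counts lay near those of all genes. The 2 are too few to read as a property of the family.

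The probe of Eif1ad that was not used had 1.06 and 0.82 in the Input and 0.04 and 0.36 in the FLAG IP, a change of −0.74 ± 0.19 (adjusted p = 0.039). Its brighter probe had risen by 0.83, and the mean over both was not called. Of the 4 probes of Eif4e2, a dim probe rose by 0.86 ± 0.15 (adjusted p = 0.017) from −1.02 and −1.17 to −0.15 and −0.31, against the fall at the brightest probe. Averaged over its probes Eif4e2 had −0.29 (adjusted p = 0.23).

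For 6 members the brightest probe was not called while another was. Eif3e encodes an outer subunit of eIF3. Its brightest probe had 3.42 and 3.28 in the Input and 3.07 and 3.57 in the FLAG IP (change −0.03), and its other probe went from 1.74 and 1.70 to 0.14 and 0.20, a change of −1.54 ± 0.14 (adjusted p = 0.0054). Eif2s3x had −0.06 at the brightest of 3 probes and 0.77 ± 0.14 and 1.11 ± 0.14 at the others (adjusted p = 0.017 and 0.0084). Eif3j1 had −0.07 and 0.82 ± 0.16 (adjusted p = 0.021). The remaining ones were Eif4a1, with a probe at −1.0 (adjusted p = 0.033), Eif4b, at 0.82 (adjusted p = 0.015), and Eif4e3, at 0.94 (adjusted p = 0.014). Where each probe lies in its transcript is not given in the files used here.

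**Figure D5:**
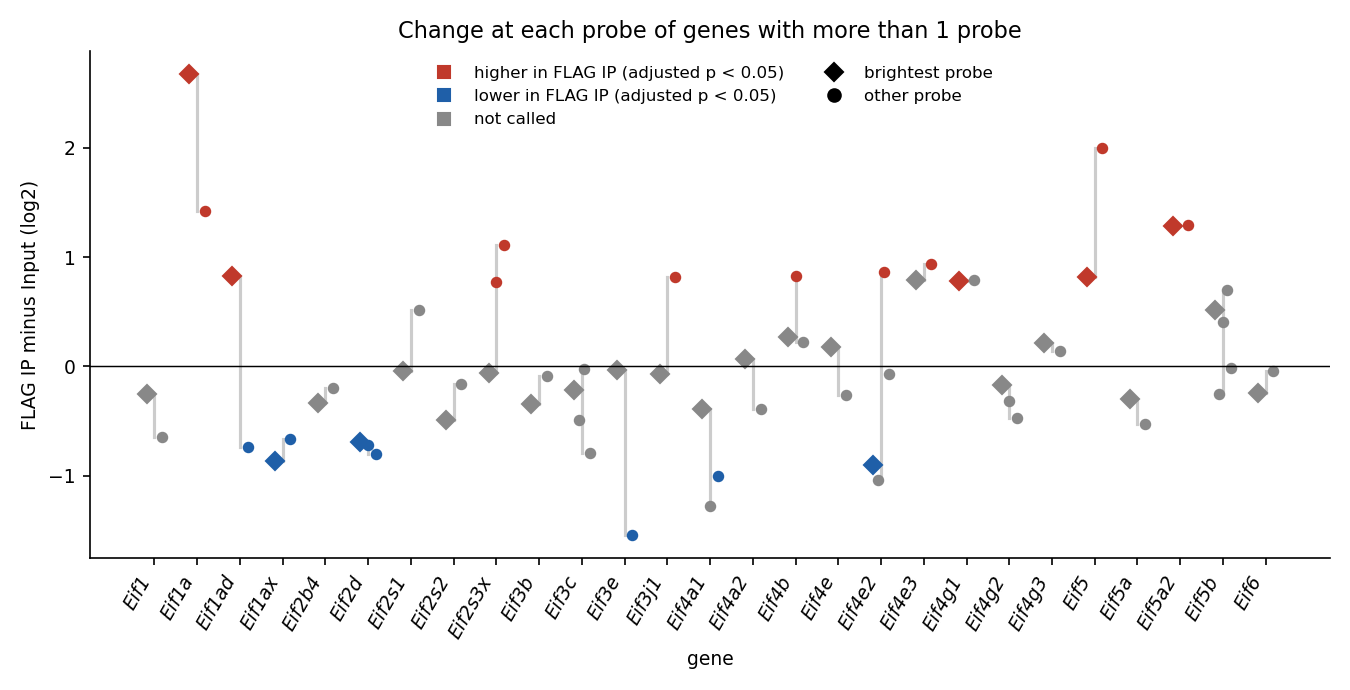
Change at each probe (y axis, FLAG IP minus Input in log2) of the 27 genes with more than 1 probe; diamonds mark the brightest probe, circles the others, and colour the call. Eif1ad and Eif4e2 have called probes on both sides of 0, while both probes of Eif1a, Eif5 and Eif5a2 lie above it.

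The machinery next to initiation was read from 52 related genes at the brightest probe of each. Of these, 49 were tested and 9 were called higher (18.4%) and 6 lower (12.2%), beside 15.7% and 21.2% of all features. The median change was −0.17. Among 9 genes of termination and recycling, 3 rose and 6 were not called. Pelo, the rescue factor of stalled ribosomes, rose by 1.24 ± 0.15 (adjusted p = 0.0079), Abce1, the ATPase that splits ribosomes for reuse, by 1.22 ± 0.15 (adjusted p = 0.0079), and Etf1, the release factor, by 0.93 ± 0.25 (adjusted p = 0.043). Abce1 had 2.48 and 2.33 in the Input and 3.68 and 3.57 in the FLAG IP.

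Elongation factor transcripts had 2 of 7 lower and 5 not called, a small list beside 21.2% of all features lower. Eef1a1 fell by 1.15 ± 0.19 on the log2 scale (adjusted p = 0.015) and Eef1b2 by 0.81 ± 0.14 (adjusted p = 0.016), while Eef2 had −0.02. Of 6 genes around poly(A)-binding protein 1 was called, Paip2b, an inhibitor of that protein, which rose by 1.48 ± 0.15 (adjusted p = 0.0059). Paip2 had 0.59 ± 0.17 (adjusted p = 0.053) and Pabpc1 −0.23 (adjusted p = 0.30). The mitochondrial factors Mtif2 and Mtif3 were not called.

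Of 38 cell type markers tested on the same arrays, 7 were called higher, 11 lower and 20 were not called, beside 15.7% of all features higher and 21.2% lower. The germ cell genes Ddx4, Dazl, Mael and Tdrd1 were well above background on all arrays and not called (changes 0.12 to 0.66). Of 8 markers of undifferentiated spermatogonia 7 were higher, and the log2 of their summed signals, to which Id4 gave the most in the Input, was 1.73 and 1.75 in the Input against 4.05 and 3.76 in the FLAG IP. The same sums follow for the other lists. Of 8 Sertoli markers 3 were lower (7.11 and 7.10 against 6.65 and 6.59), of 6 Leydig markers 3 (5.22 and 4.82 against 3.74 and 4.10), of 4 peritubular myoid markers 2 (6.61 and 6.46 against 5.95 and 6.02) and of 2 macrophage markers both (0.50 and 0.47 against −0.78 and −0.74). The 4 endothelial markers were not called, and of 2 red blood cell markers 1 was lower. Ret and Lhcgr were well above background on 2 of 4 arrays, and all other markers tested on all 4. A marker lower in the FLAG IP makes up less of the recovered RNA. Both pools come from the same kind of tissue, so a marker's change is not a count of cells. The part of these shifts in the changes of the initiation factor transcripts was not tested.

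The sign of a change depended on the scaling of whole arrays. Scaled to the spike-in control spots, the median of all features moved by −0.97, 32 of 44 initiation factor transcripts were lower and 1, Eif1a, was higher, and 4.25% of all calls were higher where 42.6% were in the scaling used above. Eif1ad, Eif4g1 and Eif5 then had changes of −0.14, −0.19 and −0.15, which are 0.97, 0.92 and 0.97 above the median of all features in that scaling. Eif1a, at 1.70 (adjusted p = 1.0e-04), remained higher. Eif5a2, at 0.31, was not called and lay 1.43 above the median of all features, as it did in the scaling used above.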

How the data were processed

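FLAG IP and Input samples of postnatal day 7 testis were measured on 4 single-colour arrays, on 1 slide with 1 scan time, so slide could not serve as a block. Per the file headers, spot intensities were extracted by Agilent Feature Extraction (version 9.5 in the submitters' processing notes), and the deposited processed signal intensity is background-subtracted. The authors' deposited table holds log2 values that equal log2 of that signal less a constant per array, within 0.01 for 99.6% of probes, with medians of 6.18, 6.25, 6.25 and 6.15, so its scale, centring and direction are known.

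Outlier spots (62 to 90 of 43379) were left out, 0 were saturated, and spots of a probe were averaged. The 75th percentile was subtracted on the log2 scale. Accessions matched to RefSeq transcripts of GRCm38.p6 named 22951 probes (55.7%). The brightest probe, by its mean level over all 4 arrays, stood for a gene. Well above background means on at least a share of 0.5 of a probe's spots. The test was limma 3.58.1 under R 4.3.3 with lmFit and eBayes, two-sided and without covariates, tested on simulated data. The normexp alternative used median signals, since the files hold no mean signal. Named are all called members, the highest and lowest of each factor, and called related genes; others were named as examples after their values were seen. The members and lists were chosen with earlier results of these data known.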

Additional observations from a re-analysis of the deposited data

How the results depend on the processing

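The counts of members called, their median change and the changes of 19 named members were recomputed under 15 alternatives; related genes, markers, paralogue differences, probe calls and start windows were not. Of the alternatives, the crossed pairing and the dimmest probe were chosen after seeing the data. The median change of the initiation factor genes was 0.051 under quantile normalization and −1.15 under spike-in scaling, and it stayed within 0.10 of the reported value under the others. The numbers called higher and lower were 1 and 32 under spike-in scaling. Without a filter on dim probes 4 were lower, from a larger set of features tested. Leaving out single arrays gave 1 to 6 higher, 0 to 7 lower and medians of −0.25 to −0.10. Eif1ad had −0.14 under spike-in scaling and −0.74 at its dimmest probe, and Eif4g1 and Eif5 had −0.19 and −0.15 under spike-in scaling. The number of members above the median of all features was 21 as reported, 30 under quantile normalization and 13 under normexp, and the cause was not tested. Of the 13 calls, 13 were kept with normexp and with trend and robust moderation, 12 with quantile normalization, 11 with the mean over probes and 8 without a filter. Some of these settings also called further members. These were Eif2s2 and Eif4e3 with normexp, and Eif2s2, Eif3g and Eif4a3 with trend and robust moderation. With the mean over probes they were Eif2s3x, Eif3e and Eif4e3. All 13 were also kept with the authors' deposited values and with features well above background on all 4 arrays. The deposited values are the same signals at nearly the same scaling, so their result was fixed in advance. All members had already passed the filter on all 4 arrays, so it left their changes as they were.

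The samples share replicate numbers, and nothing in the labels says that a number pairs them. With the replicate block 2 members were called higher (Eif1a and Eif5a2) and 2 lower (Eif3i and Eif4e2). Over features the difference between replicates 1 and 2 of the Input correlated at −0.37 with that of the FLAG IP, and the crossed pairing gave 16 calls among the members. The slide block was not run, since all arrays share 1 slide.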
